A study of Mus musculus with 2208 samples.

Results

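Gpr84, Gpr65, Gpr183, Gpr56, Gpr165 and Gpr160 are 6 G protein-coupled receptors whose messenger RNA was measured in single microglia, the resident macrophages of the brain. They were taken by symbol from a table of 23951 genes, in which 91 symbols are Gpr followed by a number, and were picked with their CKp25 and CK values at 1, 2 and 6 weeks already known. Differences between the genotypes at those weeks are therefore a description of the 6 receptors and carry no test. All 6 passed a filter on low values that kept 9435 genes. Gpr65 passed it only through CKp25 mice after induction, being found in at most 8.14% of cells in any other mouse. The cells came from the hippocampus of CKp25 mice and CK control littermates, 3 mice per genotype and time point, with 4 CKp25 mice at 6 weeks. In CKp25 mice the CK system, driven by the Camk2a promoter, switches on p25 in forebrain neurons, a shortened protein that overactivates Cdk5. The receptors were thus measured in cells other than those in which the transgene is driven, and the labels do not state which alleles the CK mice carry. Mice were 3 months old before induction (0 weeks), 3 months and 1 week old at 1 week, 3 months and 2 weeks old at 2 weeks, and 4 months and 2 weeks old at 6 weeks.

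G protein-coupled receptors span the cell membrane and pass an outside signal to G proteins, which raise or lower cyclic AMP and other messengers in the cell. Gpr84 responds to medium-chain fatty acids and is induced in macrophages and microglia by inflammatory stimuli, and Gpr65 senses protons and raises cyclic AMP. Gpr183 guides immune cells along gradients of an oxysterol that the enzyme Ch25h helps to make. Gpr56, listed as Adgrg1 in current annotation, is an adhesion receptor that binds matrix and surface partners such as transglutaminase Tgm2, while Gpr165 and Gpr160 are orphan receptors with no settled ligand.

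Cells sorted for CD11b and CD45 were processed with Smart-seq2, and the deposited values are FPKM (fragments scaled by transcript length and by mapped fragments). A gene counts as found in a cell at FPKM of 1 or more. Wells with under 1000 such genes were left out, and 2028 of 2208 wells and 41 to 96 cells per mouse remained. The level of a gene in a mouse is log2(FPKM + 1) averaged over the kept cells of that mouse, so differences between levels understate changes at low values. All 6 microglia markers were found in at least 88.9% of the cells of every mouse. The median number of genes per cell ranged over mice from 1829.5 to 2994 in CKp25 and from 1537.5 to 2930.5 in CK after induction. In 19 of 25 mice the well numbered first held over 8000 genes, and whether these wells are single cells is not known. Leaving out the first wells moved the 1-week difference of Gpr84 to 2.36 and that of Gpr165 to -2.54, against 2.35 and -2.51 with them, and moved no other receptor difference by more than the spread between mice. The number of reads behind a value is unknown apart from the submitters' median of 251353 mapped reads per cell. Gapdh was listed at 0 in 19.4% of kept cells, so a cell in which a receptor is listed at 0 may still hold its RNA.

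The stretches upstream of the annotated starts of Gpr84 and Gpr65, the receptors with higher levels in CKp25, and of Gpr165 and Gpr183, which had lower levels, show what DNA lies before genes whose levels differed in opposite directions. Each is the 250 bases before the start in RefSeq (GRCm38.p6, 5′ to 3′ on the strand of the gene), and capitals mark matches on either strand to GAGGAA, the core bound by the myeloid factor PU.1, or to TATAAA, the TATA box.
Gpr84: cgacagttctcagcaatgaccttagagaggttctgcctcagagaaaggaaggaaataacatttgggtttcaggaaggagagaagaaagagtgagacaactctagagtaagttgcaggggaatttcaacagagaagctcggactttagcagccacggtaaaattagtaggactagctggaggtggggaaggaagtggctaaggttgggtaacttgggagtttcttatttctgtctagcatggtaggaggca
Gpr65: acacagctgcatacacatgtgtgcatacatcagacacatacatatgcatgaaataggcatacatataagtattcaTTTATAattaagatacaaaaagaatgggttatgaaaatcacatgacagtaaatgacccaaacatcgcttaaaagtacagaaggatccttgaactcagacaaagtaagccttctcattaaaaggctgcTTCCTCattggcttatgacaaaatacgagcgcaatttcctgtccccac
Gpr165: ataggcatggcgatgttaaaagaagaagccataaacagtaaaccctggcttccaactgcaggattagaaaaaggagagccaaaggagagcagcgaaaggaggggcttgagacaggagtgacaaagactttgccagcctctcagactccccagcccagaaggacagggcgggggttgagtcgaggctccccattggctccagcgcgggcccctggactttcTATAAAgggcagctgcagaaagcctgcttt
Gpr183: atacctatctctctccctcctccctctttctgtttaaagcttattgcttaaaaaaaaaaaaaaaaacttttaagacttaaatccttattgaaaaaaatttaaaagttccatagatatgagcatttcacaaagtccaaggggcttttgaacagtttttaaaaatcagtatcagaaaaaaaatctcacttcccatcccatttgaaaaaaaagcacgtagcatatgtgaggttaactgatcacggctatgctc
Gpr84 lies on the minus strand at chr15:103310439-103310688, Gpr65 on the plus strand at chr12:98268385-98268634, Gpr165 on the plus strand at chrX:96713218-96713467 and Gpr183 on the minus strand at chr14:121965194-121965443. The Gpr65 window held one match to GAGGAA, 48 bases before the start, and one to TATAAA, 175 bases before it. The Gpr165 window held TATAAA 30 bases before the start. No match to these motifs, or to consensus motifs of the interferon response type and the NF-kappaB type, was found in the windows of Gpr84 or Gpr183. Among 32851 promoter windows of the same length, 23.3% held GAGGAA, 12.4% TATAAA, 2.98% the interferon response type and 17.6% the NF-kappaB type. GC content was 46.0% for Gpr84, 36.8% for Gpr65, 54.4% for Gpr165 and 32.0% for Gpr183, against a median of 52.4% over all windows. Gpr56 has 2 annotated starts, for which the FPKM give 1 value together, and its windows are not shown.

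Gpr84 had the largest difference above CK at 1 week. With the log2 of the mean FPKM plus 1 in place of the mean of log2 values, that difference was 1.43, and Gpr65 then had larger ones, 2.83 at 2 weeks and 3.32 at 6 weeks. Its levels at 1 week were 5.04, 4.52 and 5.31 in CKp25 mice 1, 2 and 3, against 3.00, 2.41 and 2.41 in CK mice 1, 2 and 3. Every CKp25 mouse lay above every CK mouse, and the difference was 2.35 ± 0.45 (CKp25 minus CK, ± SE from limma, as for all differences below). By 2 weeks the levels were 4.85, 4.57 and 5.47 in CKp25 mice, against 2.87, 4.70 and 3.23 in CK mice. Here the groups overlapped through CK mouse 2 alone, and the difference was 1.37 ± 0.45, or 1.92 without that mouse, 1.00 without CK mouse 1, and 0.77 with the log2 of the mean FPKM plus 1. By 6 weeks the levels were 3.83, 3.14, 2.83 and 3.86 in CKp25 mice, against 3.49, 2.97 and 3.98 in CK mice, and the groups overlapped with a difference of -0.07 ± 0.42. Before induction the levels were 1.93, 2.71 and 2.30 in CKp25 mice, against 2.81, 2.58 and 2.71 in CK mice.

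Gpr84 was also held by more cells in CKp25 mice early on. At 1 week 68.1% ± 4.75 of cells in CKp25 mice had FPKM of 1 or more, against 39.7% ± 2.26 in CK mice (mean ± SD, n = 3 each). Shares at 2 weeks were 70.6% ± 3.81 in CKp25 mice and 53.2% ± 10.4 in CK mice, with 63.5% of cells in CK mouse 2. At 6 weeks they were 49.9% ± 5.22 in 4 CKp25 mice and 51.3% ± 7.42 in 3 CK mice. Among cells that held the receptor, the median FPKM at 1 week was 279.9, 101.0 and 182.4 in CKp25 mice, against 247.1, 63.9 and 84.5 in CK mice. Those values overlapped, as they did at 2 and 6 weeks, whereas the shares of cells at 1 and 2 weeks did not.

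Gpr65 also had higher levels in CKp25, but the gap was larger at 2 and 6 weeks than at 1 week in place of closing. Its levels at 1 week were 0.57, 1.01 and 1.01 in CKp25 mice, against 0.16, 0.31 and 0.25 in CK mice (difference 0.62 ± 0.21). At 2 weeks they were 1.36, 1.91 and 1.09 in CKp25 mice, against 0.19, 0.31 and 0.34 in CK mice (difference 1.17 ± 0.21). At 6 weeks they were 2.21, 1.70, 1.05 and 1.66 in CKp25 mice, against 0.36, 0.20 and 0.05 in CK mice (difference 1.45 ± 0.19). At each of these weeks the CKp25 mice lay above the CK mice without overlap. Before induction the levels were 0.18, 0.35 and 0.42 in CKp25 mice and 0.47, 0.35 and 0.35 in CK mice.

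Gpr65 stayed a receptor of a minority of cells. It was found in 15.3% ± 4.48 of cells in CKp25 mice and 4.33% ± 1.97 in CK mice at 1 week. Shares at 2 weeks were 27.1% ± 6.30 in CKp25 mice and 6.70% ± 1.30 in CK mice, and at 6 weeks 28.9% ± 6.06 in CKp25 mice and 4.06% ± 2.86 in CK mice. Cells with Gpr65 in CKp25 mice at 1 week also held more genes, with a median of 3904 genes, against 2376 in cells without it (mean of mouse medians). The direction was the same in every group. Medians were 3466 against 2104 in CKp25 mice at 0 weeks, and 2525 against 2468 in CK mice at 1 week. The part of sequencing depth in its detection was not tested.

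**Figure D1:**
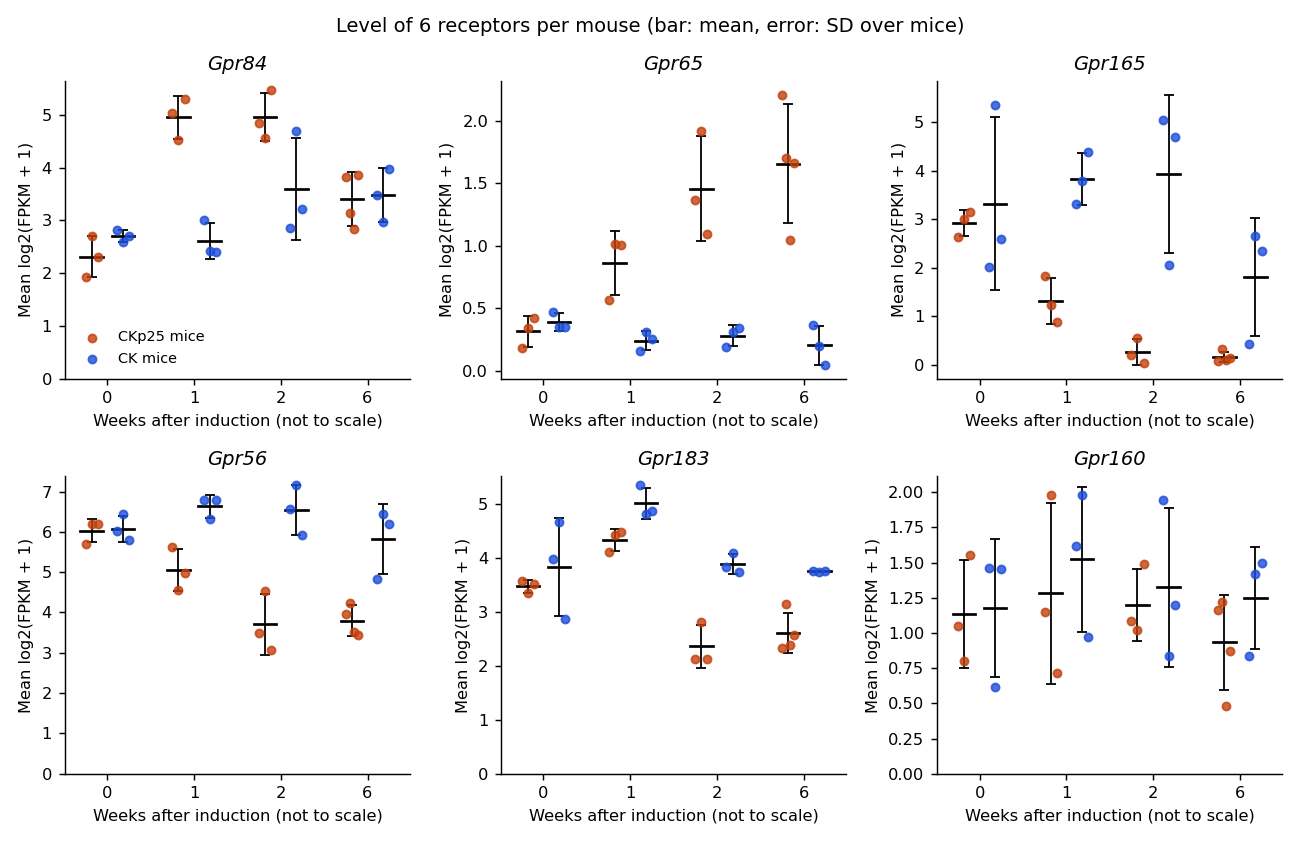
Level of each receptor (mean over cells of log2(FPKM + 1), vertical axis) in each mouse by weeks after induction, with CKp25 mice in orange to the left of CK mice in blue; bars are means and error bars SD over mice. Gpr84 lies at 4.52 to 5.31 in CKp25 mice and 2.41 to 3.00 in CK mice at 1 week, Gpr65 parts from CK at every week after induction, Gpr165 lies at 0.04 to 0.56 in CKp25 mice at 2 weeks, and Gpr160 overlaps throughout.

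Gpr183, the oxysterol receptor, had lower levels in CKp25 at 1, 2 and 6 weeks. At 1 week the levels were 4.11, 4.43 and 4.49 in CKp25 mice, against 5.35, 4.82 and 4.88 in CK mice (difference -0.68 ± 0.42). At 2 weeks they were 2.14, 2.81 and 2.13 in CKp25 mice, against 3.84, 4.09 and 3.74 in CK mice (difference -1.53 ± 0.42). At 6 weeks they were 2.33, 3.14, 2.39 and 2.58 in CKp25 mice, against 3.76, 3.75 and 3.76 in CK mice (difference -1.14 ± 0.39). No CKp25 mouse reached a CK mouse at these weeks, although both genotypes stood higher at 1 week than at the others. The 1-week difference was -0.29 with a well filter of 2000 genes. Before induction the levels were 3.57, 3.34 and 3.52 in CKp25 mice, against 3.99, 4.67 and 2.87 in CK mice.

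The share of cells with Gpr183 differed little at 1 week, 69.3% ± 4.98 in CKp25 mice and 73.3% ± 2.84 in CK mice. It was 45.7% ± 8.36 in CKp25 mice and 63.0% ± 1.56 in CK mice at 2 weeks, and 47.2% ± 9.59 in CKp25 mice and 63.0% ± 2.55 in CK mice at 6 weeks. In cells that held it, the median FPKM at 2 weeks was 49.8, 34.1 and 33.6 in CKp25 mice, against 74.1, 104.0 and 72.6 in CK mice, without overlap. The medians overlapped at 1 week, with 77.9, 75.8 and 137.3 in CKp25 mice, against 203.3, 142.2 and 123.9 in CK mice. They also overlapped at 6 weeks, with 108.7, 35.8, 24.8 and 53.6 in CKp25 mice, against 56.9, 59.2 and 73.6 in CK mice. Gpr183 lies within Ubac2 in current annotation, and the sources used here do not say whether counting used strand. Ubac2 itself differed by -0.24 ± 0.33, -0.09 ± 0.33 and 0.29 ± 0.31 at 1, 2 and 6 weeks and did not pass the test (limma, Benjamini-Hochberg adjusted p = 0.772, 0.918 and 0.730).

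Gpr56 was the most widely held of the 6 receptors in CK mice and had lower levels in CKp25 while most cells still held it. In CKp25 mice 1 and 3 at 2 weeks, Gpr84 was found in more cells than Gpr56. At 1 week the levels were 5.62, 4.57 and 4.97 in CKp25 mice, against 6.80, 6.31 and 6.78 in CK mice (difference -1.58 ± 0.49). At 2 weeks they were 3.50, 4.54 and 3.08 in CKp25 mice, against 6.57, 7.16 and 5.93 in CK mice (difference -2.85 ± 0.49). At 6 weeks they were 3.97, 4.25, 3.51 and 3.44 in CKp25 mice, against 4.82, 6.45 and 6.19 in CK mice (difference -2.03 ± 0.46). CKp25 mice lay below CK mice at all 3 weeks. CK mouse 1 at 6 weeks was the lowest CK mouse, and it also had the fewest genes per cell of all 25 mice. Before induction the levels were 5.70, 6.20 and 6.19 in CKp25 mice, against 6.01, 6.43 and 5.79 in CK mice.

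The share of cells with Gpr56 was 84.8% ± 6.18 in CKp25 mice and 96.3% ± 1.42 in CK mice at 1 week. At 2 weeks the shares were 66.0, 83.3 and 60.3% in CKp25 mice, against 96.9, 99.0 and 91.3% in CK mice, and at 6 weeks they were 68.9% ± 5.18 in 4 CKp25 mice and 87.6% ± 13.2 in 3 CK mice. Cells that still held it did so at a lower value. Their median FPKM was 67.0, 58.7 and 81.9 in CKp25 mice and 167.4, 86.0 and 156.4 in CK mice at 1 week. At 2 weeks it was 45.3, 43.6 and 41.9 in CKp25 mice, against 132.1, 172.3 and 92.3 in CK mice, and at 6 weeks 45.4, 58.1, 42.4 and 48.8 in CKp25 mice, against 97.6, 108.5 and 101.7 in CK mice. No CKp25 mouse overlapped a CK mouse in this value at any of the 3 weeks.

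Of the 6 receptors Gpr165 had the widest spread among mice and, at 1 and 2 weeks but not at 6 weeks, the largest difference below CK. At 1 week the levels were 1.83, 1.24 and 0.89 in CKp25 mice, against 3.32, 3.80 and 4.39 in CK mice (difference -2.51 ± 0.74). At 2 weeks they were 0.20, 0.56 and 0.04 in CKp25 mice, against 5.05, 2.07 and 4.70 in CK mice (difference -3.68 ± 0.74). At 6 weeks they were 0.09, 0.32, 0.10 and 0.15 in CKp25 mice, against 0.43, 2.66 and 2.34 in CK mice (difference -1.65 ± 0.69). CKp25 mice lay below CK mice at each of these weeks, at 6 weeks by a narrow margin through CK mouse 1. Without CK mouse 1 the difference at 6 weeks was -2.34, and without CK mouse 2 that at 2 weeks was -4.61.

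Gpr165 was found in 25.7% ± 7.74 of cells in CKp25 mice and 63.2% ± 9.67 in CK mice at 1 week. Its share at 2 weeks was 5.3, 13.5 and 1.5% in CKp25 mice, against 79.2, 38.5 and 78.3% in CK mice. At 6 weeks it was 2.4, 7.0, 1.9 and 3.7% in CKp25 mice, against 9.1, 46.8 and 44.0% in CK mice. Before induction it was 43.3, 53.6 and 58.1% in CKp25 mice, against 34.4, 80.2 and 47.7% in CK mice, so CK mice differed from each other before any induction. The SD of the Gpr165 level within groups was 0.97, at the 99.3rd percentile of the 9435 genes, whose median SD was 0.27. For Gpr84, Gpr56, Gpr160 and Gpr183 that SD was 0.51, 0.54, 0.45 and 0.40, and for Gpr65 it was 0.27.

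**Figure D2:**
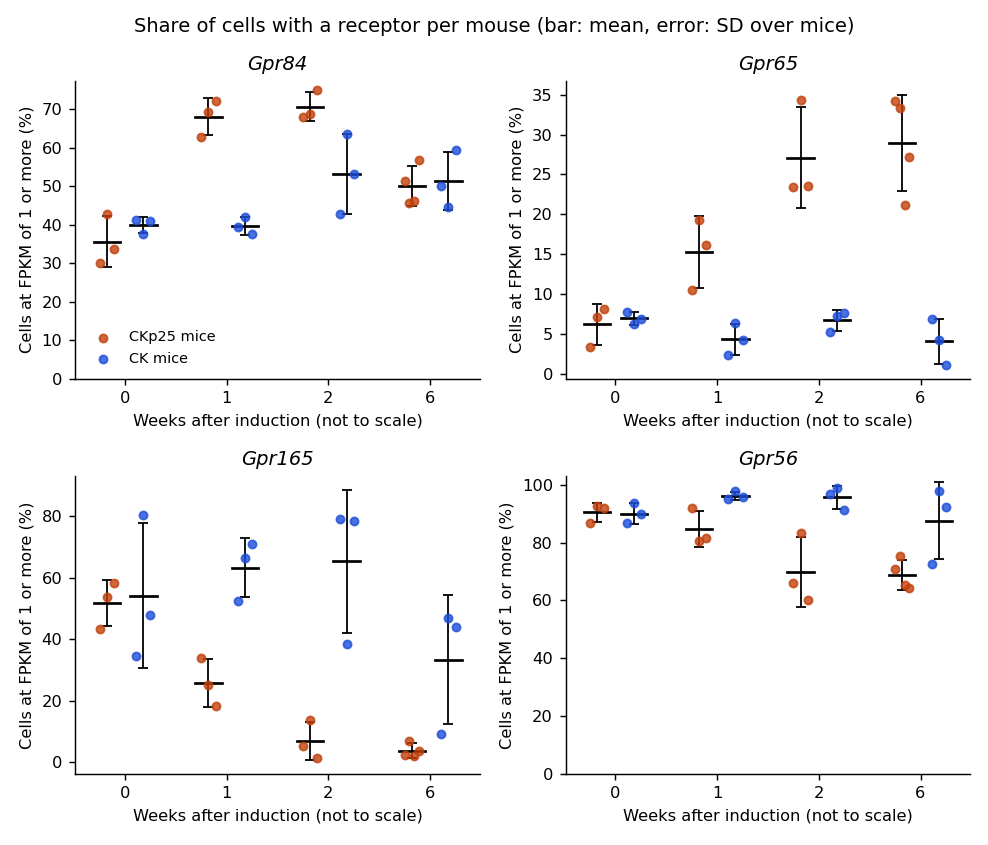
Share of cells at FPKM of 1 or more (vertical axis, percent) for 4 receptors in each mouse by weeks after induction, with CKp25 mice in orange to the left of CK mice in blue; bars are means and error bars SD over mice. Gpr165 is found in 1.5 to 13.5% of cells in CKp25 mice at 2 weeks, Gpr56 stays above 60% of cells in every CKp25 mouse, and CK mice spread widely for Gpr165.

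Gpr160 did not separate the genotypes at any week. Its differences at 1, 2 and 6 weeks were -0.24 ± 0.32, -0.13 ± 0.32 and -0.31 ± 0.29, with overlap each time. Levels ran from 0.48 to 1.98 over CKp25 mice and from 0.83 to 1.98 over CK mice at those weeks. It was found in 16.6 to 22.3% of cells in CKp25 mice and 21.8 to 24.2% in CK mice (means of the groups at 1, 2 and 6 weeks).

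At 1 week the mice of the genotypes did not overlap for 5 of the 6 receptors, Gpr84 and Gpr65 lying above CK and Gpr165, Gpr56 and Gpr183 below, and for 20.7% of the tested genes in either direction. At 2 weeks there were 4 such receptors, Gpr65 above and the same 3 below, beside 24.1% of genes, and at 6 weeks the same 4 beside 12.9%. The receptors were chosen on these contrasts, so nothing is read from the counts. Over all tested genes the median difference was 0.06 at 1 week, -0.00 at 2 weeks and -0.04 at 6 weeks.

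The genotype difference itself was followed from week to week. For Gpr84 the later difference minus the earlier one was 2.74 ± 0.64 from 0 to 1 week, -0.98 ± 0.64 from 1 to 2 weeks and -1.43 ± 0.62 from 2 to 6 weeks. For Gpr65 it was 0.70 ± 0.29, 0.55 ± 0.29 and 0.28 ± 0.28, the last no larger than its SE. For Gpr165 it was -2.12 ± 1.05, -1.16 ± 1.05 and 2.03 ± 1.02, and for Gpr56 -1.53 ± 0.69, -1.27 ± 0.69 and 0.81 ± 0.67. For Gpr183 it was -0.31 ± 0.60, -0.85 ± 0.60 and 0.39 ± 0.58. Between 2 and 6 weeks the gap of Gpr165 narrowed on the CK side, where the mean level was 1.81 at 6 weeks and 3.94 at 2 weeks. CKp25 mice averaged 0.17 at 6 weeks and 0.27 at 2 weeks. The CK mice of these weeks overlapped. CK mouse 1 at 6 weeks, with a Gpr165 level of 0.43, had the fewest genes per cell of all 25 mice.

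**Figure D3:**
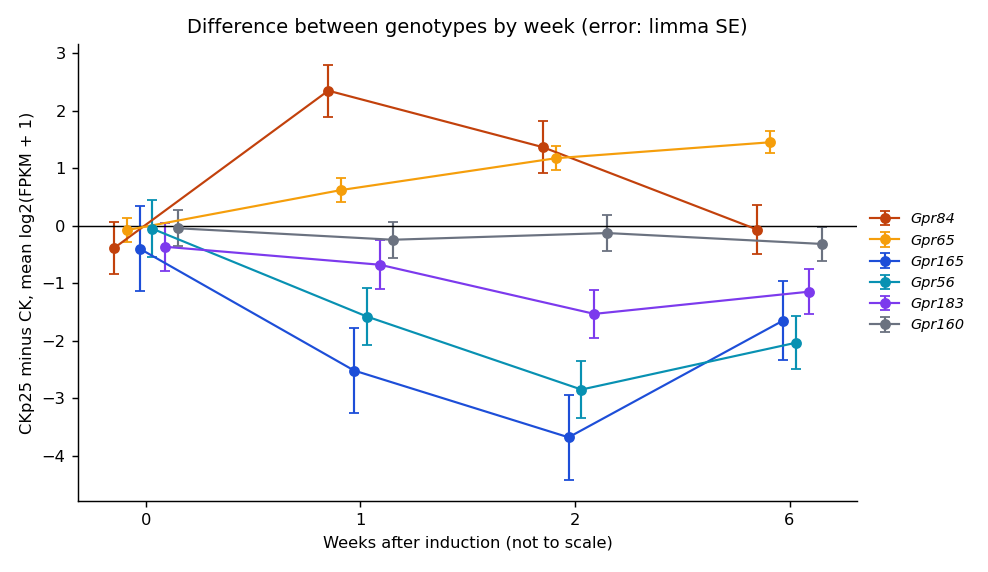
Difference between genotypes (CKp25 minus CK in mean log2(FPKM + 1), vertical axis) for the 6 receptors by weeks after induction; points are limma estimates and error bars their SE. Gpr84 peaks at 2.35 at 1 week and is at -0.07 at 6 weeks, Gpr65 is at 1.45 at 6 weeks, and Gpr165, Gpr56 and Gpr183 are lowest at 2 weeks.

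Markers of other cell types moved with some of these results. At 2 weeks the summed level of 5 monocyte markers ranged over mice from 1.34 to 1.49 in CKp25 and from 0.12 to 0.52 in CK. Among them Plac8 was found in 14.0% of cells in CKp25 mice and 1.07% in CK mice, Ly6c2 was at 0 in CK mice and Chil3 was at 0 in CKp25 mice. The summed level of the 6 microglia markers was lower in CKp25 at all 3 weeks, at 60.41 to 65.17 in CKp25 mice and 66.52 to 67.57 in CK mice at 1 week and 54.15 to 57.36 in CKp25 mice and 61.99 to 68.29 in CK mice at 2 weeks. At 6 weeks it was 48.97 to 54.31 in CKp25 mice and 59.75 to 61.90 in CK mice. At 1 week the 4 neutrophil markers measured summed to 1.40 to 2.21 in CKp25 mice and 2.74 to 3.32 in CK mice, and at 2 weeks to 1.18 to 1.53 in CKp25 mice and 1.78 to 2.30 in CK mice. Cxcr2 carried that sum at 1 week, found in 47.8% of cells in CKp25 mice and 76.3% in CK mice, while S100a8, S100a9 and Retnlg were at 0 in CKp25 mice and averaged at most 0.748% of cells in CK mice. At 6 weeks the 5 dendritic cell markers summed to 0.44 to 0.73 in CKp25 mice and 0.03 to 0.41 in CK mice. At 2 weeks 3.36% of cells in CKp25 mice and 0.725% in CK mice held 2 or more monocyte markers, so leaving out such cells keeps most cells with Plac8 alone. Without the 217 cells that held 2 or more markers of another cell type, the 2-week differences were 1.14 for Gpr84, 1.15 for Gpr65, -1.51 for Gpr183, -2.85 for Gpr56 and -3.73 for Gpr165. The 1-week difference of Gpr84 was then 2.42. The part of the cells with 1 such marker in the receptor differences was not tested.

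Before induction the genotypes could be tested, since that contrast had no part in choosing the receptors. None of the 6 passed (limma with Benjamini-Hochberg adjustment over 9435 genes, adjusted p = 1.00 for each), and 0% of all genes were called. An unadjusted p under 0.05 was reached by 101 genes in this fit, by 111 without limma's trend and robust options and by 227 after quantile normalization, with 0 called in each. The differences were -0.39 ± 0.45 for Gpr84, -0.40 ± 0.74 for Gpr165, -0.36 ± 0.42 for Gpr183, -0.08 ± 0.21 for Gpr65, -0.05 ± 0.49 for Gpr56 and -0.04 ± 0.32 for Gpr160. Gpr65 entered this fit through CKp25 mice of later weeks and was near the floor in both genotypes at 0 weeks. Shares of cells at 0 weeks gave exact 2-sided permutation p-values of 0.4 to 1.0 over the 6 receptors, all 1.0 after adjustment, in a design of 3 against 3 mice that cannot go below 0.1.

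The CK mice at 1, 2 and 6 weeks were also set against the 3 CK mice of 0 weeks, a baseline that these differences share. The receptors were chosen with the later CK values known, so these differences carry no test. Gpr183 differed by 1.18 ± 0.42 at 1 week, with every CK mouse at 1 week above every CK mouse at 0 weeks. Gpr84 differed by 0.90 ± 0.45 at 2 weeks and 0.78 ± 0.45 at 6 weeks, again with all later mice above all 0-week mice. Gpr165 differed by -1.51 ± 0.74 at 6 weeks, with overlap. Gpr65 differed by -0.15 ± 0.21 and -0.11 ± 0.21 at 1 and 2 weeks, with all later mice below all 0-week mice. The share of all genes without overlap in these contrasts was not computed, so nothing is read from the separation. Over all 9435 tested genes, 0 were called at 1, 2 or 6 weeks (limma, Benjamini-Hochberg adjusted p under 0.05).

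Ordered over the 8 groups, Gpr84 was highest in CKp25 at 2 weeks (4.96 ± 0.46, SD) and CKp25 at 1 week (4.96 ± 0.40). CK at 2 weeks, CK at 6 weeks and CKp25 at 6 weeks followed at 3.60 ± 0.97, 3.48 ± 0.51 and 3.41 ± 0.51, then CK at 0 weeks, CK at 1 week and CKp25 at 0 weeks at 2.70 ± 0.11, 2.61 ± 0.34 and 2.31 ± 0.39. The one break between neighbours whose mice did not overlap lay between CKp25 at 6 weeks and CK at 0 weeks. Gpr65 ran from CKp25 at 6, 2 and 1 weeks (1.66 ± 0.47, 1.45 ± 0.42 and 0.86 ± 0.25) to the CK and 0-week groups at 0.20 to 0.39, with breaks on both sides of CKp25 at 1 week. Gpr165 had CKp25 at 1, 2 and 6 weeks in the 3 lowest places (1.32 ± 0.47, 0.27 ± 0.27 and 0.17 ± 0.11), and its one break lay between CKp25 at 1 and 2 weeks. Gpr56 had the same 3 groups lowest (5.05 ± 0.53, 3.71 ± 0.76 and 3.79 ± 0.38), with 2 and 6 weeks apart from 1 week.

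Gpr183 was ordered by week as well as genotype. CK at 1 week (5.02 ± 0.29) stood above CKp25 at 1 week (4.34 ± 0.20), which stood above CK at 2 weeks (3.89 ± 0.18), each without overlap. CKp25 at 6 weeks (2.61 ± 0.37) and 2 weeks (2.36 ± 0.39) were lowest and overlapped each other. For Gpr160, all neighbours overlapped, from 1.52 ± 0.51 in CK at 1 week to 0.93 ± 0.34 in CKp25 at 6 weeks. FPKM are scaled by transcript length, so mean FPKM give a rough order of the receptors. In CK mice at 1 week mean FPKM was 163 ± 47.3 for Gpr56, 144 ± 30.5 for Gpr183, 78.9 ± 46.7 for Gpr84, 68.7 ± 10.5 for Gpr165, 40.4 ± 12.1 for Gpr160 and 5.68 ± 2.00 for Gpr65. Over these mice Gpr84 overlapped Gpr56, Gpr183, Gpr165 and Gpr160, and Gpr56 overlapped Gpr183.

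Each receptor was set beside the 3 tested genes whose levels were most like its own over the 25 mice (Pearson r, a description, since mice of a group share genotype and week). Gpr84 was closest to Tnf, an inflammatory cytokine (r = 0.86), Icam1, an adhesion molecule (0.84), and Sae1, a subunit of the SUMO-activating enzyme (0.84). Tnf differed by 1.77 at 1 week, 1.35 at 2 weeks and 0.12 at 6 weeks. Gpr65 was closest to Phf11d (0.92), the lipoprotein lipase Lpl (0.92) and Lgals3bp (0.91), which differed by 0.33, 1.49 and 1.28 (Phf11d), 1.27, 1.75 and 2.32 (Lpl) and 1.08, 6.62 and 5.88 (Lgals3bp) at 1, 2 and 6 weeks. Gpr56 had the highest values, with the transporter Slco2b1 (0.97), 4632428N05Rik (0.96) and the nucleotide receptor P2ry13 (0.95). Gpr165 was closest to Srgap2 (0.90), Chd9 (0.89) and Gm7694 (0.88), and Gpr183 to Arid1a (0.85), the receptor Gpr34 (0.84) and the tubulin Tuba1a (0.83). Gpr160 had the lowest values, with Zxdc (0.71), Csrnp2 (0.70) and Trim43b (0.69).

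Within single cells at 1 week, Gpr84 and Gpr165 were compared for how often one cell held both. In CKp25 mice 13.2% of cells held both, against 17.2% from the product of the shares, a ratio of 0.77 that ranged over the 3 mice from 0.73 to 0.79. In CK mice 25.4% held both, against 25.1%, a ratio of 1.01 (0.81 to 1.13). The median ratio of Gpr84 with all tested genes was 1.11 in CKp25 mice and 1.06 in CK mice, and cells with more genes found tend to hold more of any pair. In cells with 1500 to 3500 genes, a narrower range of depth, the ratio of Gpr84 and Gpr165 was 0.68 in CKp25 mice (0.67 to 0.71) and 1.01 in CK mice. At 2 weeks the ratio spanned 0.59 to 1.33 over CKp25 mice, where few cells held Gpr165, and 0.77 to 0.96 over CK mice. The pair Gpr84 and Gpr56 gave 1.00 in CKp25 mice and 1.03 in CK mice at 1 week, and Gpr84 with Gpr65 gave 1.31 in CKp25 mice and 1.25 in CK mice. The median ratio of Gpr65 with all tested genes was 1.45 in CKp25 mice and 1.41 in CK mice. In the cells with 1500 to 3500 genes, Gpr84 with Gpr65 gave 1.31 in CKp25 mice (1.26 to 1.33) and 0.86 in CK mice (0.640 to 1.203), beside medians for Gpr65 of 1.07 in CKp25 mice and 0.94 in CK mice. Pairs in CK mice also lay below 1 in all 3 mice. Gpr84 with Gpr183 did so at 1 week (0.91, 0.88 to 0.94), and Gpr165 with Gpr65 at 2 weeks (0.74, 0.73 to 0.76). Cells of a mouse are not independent samples, and these ratios were not tested.

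**Figure D4:**
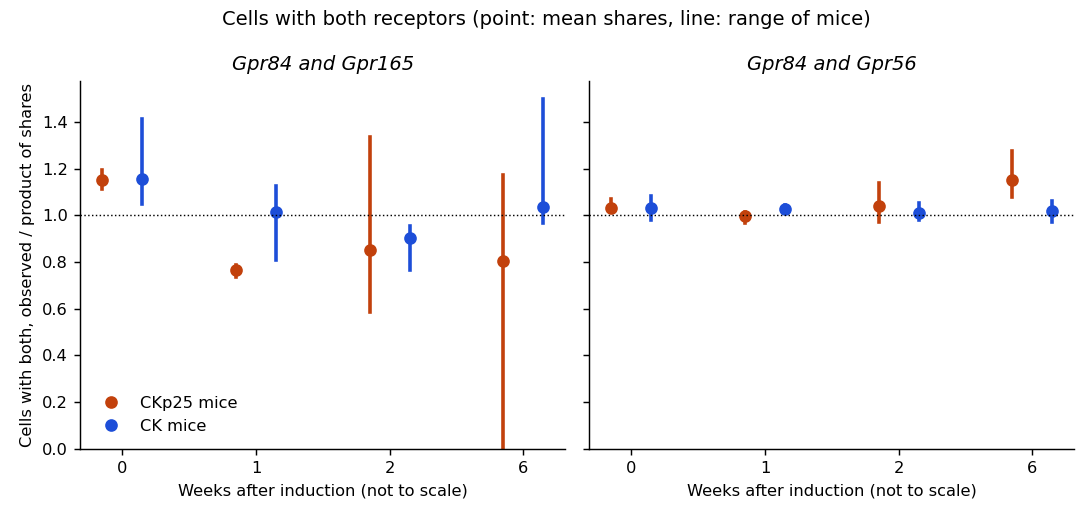
Share of cells with both receptors divided by the product of their shares (vertical axis) for Gpr84 with Gpr165 and Gpr84 with Gpr56 by weeks after induction, with CKp25 in orange to the left of CK in blue; points are values from the mean shares and lines the range over mice. Gpr84 with Gpr165 is at 0.77 in CKp25 mice at 1 week, with all 3 mice below 1, while Gpr84 with Gpr56 is at 1.00. Other pairs, not shown, also lay below 1 in all 3 mice of a CK group.

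Genes that make or handle the signals of these receptors, or bind beside them, were tested in the same fit. This gene list and those below were drawn up with earlier results of these data known, so nothing is read from their counts. Of 16 such genes 14 were tested, and 4 rose and 0 fell at 1 week, against 3.90% higher and 0.392% lower among all tested genes (limma, Benjamini-Hochberg adjusted p under 0.05). At 2 weeks 4 rose and 0 fell, against 6.14% and 2.24%, and at 6 weeks 2 rose and 1 fell, against 4.21% and 1.54%. The median difference of the 14 genes was 0.36, 0.25 and 0.13 at 1, 2 and 6 weeks. Ch25h, the enzyme that starts the Gpr183 ligand from cholesterol, was found in 8.1, 19.3 and 8.6% of cells in CKp25 mice at 1 week, against 1 of 272 CK cells. At 2 weeks it was found in 24.5, 18.8 and 36.8% of cells in CKp25 mice, against 2 of 284 CK cells, and at 6 weeks in 17.1, 10.5, 11.5 and 17.3%, against 3 of 182 CK cells. Its level rose by 0.82 ± 0.21, 1.80 ± 0.21 and 0.91 ± 0.20 at 1, 2 and 6 weeks (limma, adjusted p = 0.0166, 9.2e-08 and 0.00212). Ch25h passed the filter on low values only through CKp25 mice after induction. No other mouse had it in over 4.26% of cells. Its p-values depend on that entry and are given as a description. The other genes of this ligand, Hsd3b7, which breaks it down, and Cyp27a1, a sterol hydroxylase, did not pass the test, with differences of -0.56 and -0.28 at 1 week and 0.28 and -0.46 at 2 weeks, and Cyp7b1 was below the filter.

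Ldha, which makes lactate, rose by 1.87 ± 0.48, 2.24 ± 0.48 and 1.65 ± 0.45 at 1, 2 and 6 weeks (adjusted p = 0.0142, 0.00124 and 0.0166, limma). Slc16a3, which exports lactate with protons, the ions that Gpr65 senses, rose by 1.17 ± 0.26 and 0.99 ± 0.26 at 1 and 2 weeks (adjusted p = 0.00359 and 0.0102). At 6 weeks Slc16a3 differed by -0.27 ± 0.25 (limma, adjusted p = 0.661). A link between Slc16a3 and the level of Gpr65 was not tested. Slc16a1, which also moves lactate with protons, did not pass at any week, with a difference of 0.32 at 1 week. Among the fatty acid oxidation genes set beside Gpr84, Acadl rose by 1.05 ± 0.26 at 1 week (adjusted p = 0.00888), and Acadm, Acadvl and Hadha did not pass, at -0.24, 0.29 and 0.52. Tgm2, the partner of Gpr56, fell by 1.67 on the log2 scale at 6 weeks (adjusted p = 0.000253), with levels of 0.68, 0.74, 0.72 and 0.82 in CKp25 mice, against 1.87, 2.97 and 2.39 in CK mice. The tetraspanin Cd9 rose by 1.65 ± 0.53 at 2 weeks (adjusted p = 0.0413), its partner Cd81 did not pass, at 0.27, and Col3a1 was below the filter.

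Of the calls just named, those of Ch25h at 2 and 6 weeks, Ldha at 2 weeks, Slc16a3 at 1 week and Tgm2 at 6 weeks held without any 1 of the 25 mice. Ch25h at 1 week was not called without CKp25 mouse 2 or CK mouse 1 or 3 of that week (adjusted p = 0.194, 0.0645 and 0.0614), Acadl at 1 week without CKp25 mouse 2 or CK mouse 1 (0.0800 and 0.135), and Ldha at 1 week without CKp25 mouse 2 or CK mouse 3 (0.0721 and 0.168). Slc16a3 at 2 weeks was not called without CKp25 mouse 3 or CK mouse 1 or 3 (0.137, 0.0842 and 0.0733), and Ldha at 6 weeks without CKp25 mouse 1 or CK mouse 2 or 3 (0.0750, 0.0574 and 0.0775). A change of the genotype difference from one week to the next was tested for the 14 genes called in this and the next 2 lists, and none of 42 tests passed (lowest adjusted p = 0.0809, Slc16a3 from 0 to 1 week). Cd9 at 2 weeks was not called without any 1 CKp25 mouse of that week (0.108, 0.0653 and 0.142) or without CK mouse 1 or 3 (0.153 and 0.149). With the log2 of the mean FPKM plus 1, Ldha was called at no week (adjusted p = 0.338, 0.111 and 0.111 at 1, 2 and 6 weeks), nor were Slc16a3 at 1 and 2 weeks (0.405 and 0.356), Acadl at 1 week (0.196) and Cd9 at 2 weeks (0.0599). With all wells, Ldha at 1 and 6 weeks (0.0826 and 0.157), Slc16a3 at 2 weeks (0.0841) and Cd9 (0.554) were not called, and Ch25h at 1 week was lost after quantile normalization (0.0688) and without cells that held markers of another type (0.0682), as was Cd9 without those cells (0.0918). The calls of Ch25h at 2 and 6 weeks and of Tgm2 held under all 38 alternatives, though Ch25h had passed the filter through CKp25 mice alone.

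**Figure D5:**
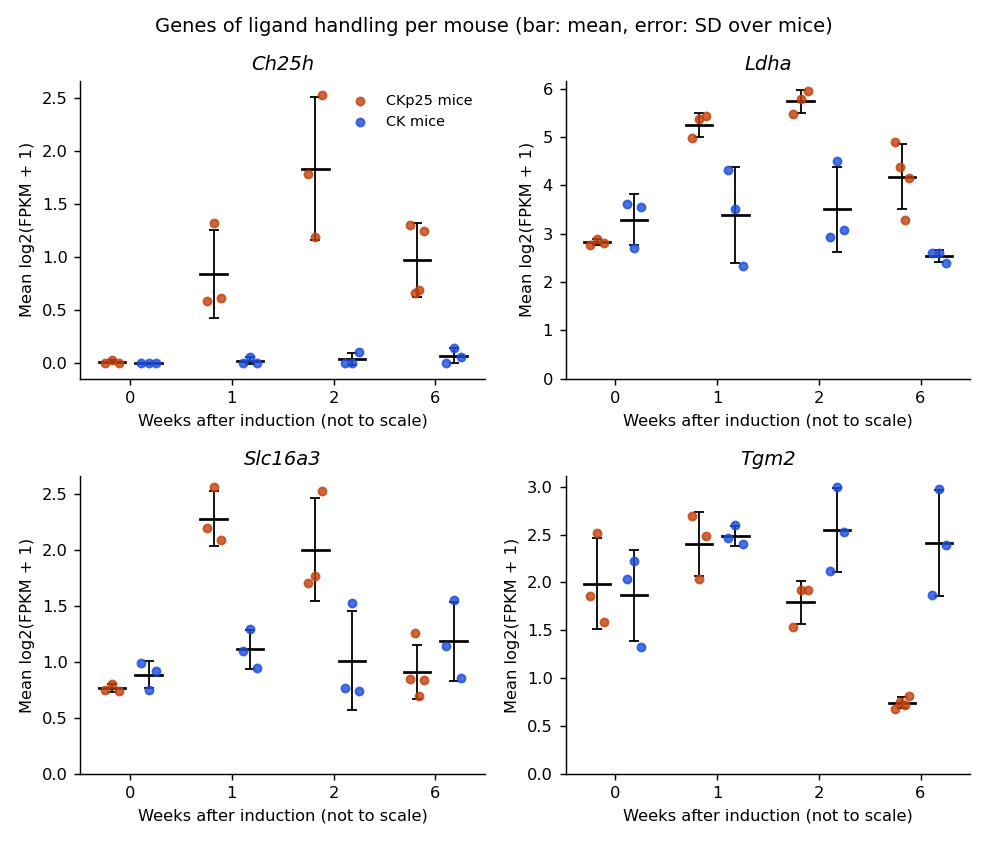
Level (mean over cells of log2(FPKM + 1), vertical axis) of Ch25h, Ldha, Slc16a3 and Tgm2 in each mouse by weeks after induction, with CKp25 mice in orange to the left of CK mice in blue; bars are means and error bars SD over mice. Ch25h is at 0.59 to 2.54 in CKp25 mice and 0.00 to 0.14 in CK mice after induction, and Tgm2 is lower in all 4 CKp25 mice at 6 weeks.

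Few other receptors of this naming family were measurable. Of 85 further Gpr symbols 63 were found in under 5% of cells of every mouse, and 13 were tested. None rose at any week, 0 fell at 1 week, 2 fell at 2 weeks and 3 at 6 weeks, beside the shares of all genes given above, and the median difference was -0.09, -0.15 and 0.06 (limma). At an unadjusted p under 0.05, 0 were higher at 1 and 2 weeks and 1 at 6 weeks, and 3 were lower at each of the 3 weeks. After quantile normalization, or with wells of at least 2000 genes, 1 rose at 6 weeks. Gpr34, the lysophosphatidylserine receptor of microglia, fell by 2.37 and 2.03 on the log2 scale at 2 and 6 weeks (adjusted p = 0.000474 and 0.00158, limma). Its levels at 6 weeks were 8.44, 7.78, 6.94 and 7.71 in CKp25 mice, against 9.76, 9.95 and 9.55 in CK mice, and both calls held without any 1 mouse. Gpr155, a cholesterol-sensing protein of the lysosome, fell by 1.13 and 1.15 at 2 and 6 weeks (adjusted p = 0.0443 and 0.0324). Its 2-week call was lost without CKp25 mouse 1 or 3 or CK mouse 1 or 2 of that week (adjusted p = 0.189, 0.131, 0.161 and 0.121) and without CK mouse 1 or 3 at 0 weeks, CKp25 mouse 2 at 1 week or CKp25 mouse 4 at 6 weeks (0.0513, 0.0511, 0.0515 and 0.0509). Its 6-week call was lost without CKp25 mouse 1, 2 or 4 or CK mouse 1 or 2 (0.0547, 0.0638, 0.0885, 0.0546 and 0.204). Gpr180 fell by 0.71 at 6 weeks (adjusted p = 0.0147), a call lost without CKp25 mouse 1 or 2 (0.0519 and 0.0612). A fit to the compared groups alone did not call Gpr155 at 2 or 6 weeks (0.0664 and 0.0553) or Gpr180 (0.0793), and the log2 of the mean FPKM plus 1 did not call Gpr155 at 6 weeks (0.0870).

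Among 33 tested genes of G protein signalling, 1 rose and 1 fell at 1 week, against 3.90% higher and 0.392% lower among all tested genes, and 3 rose and 0 fell at 2 weeks, against 6.14% and 2.24%. None passed at 6 weeks, against 4.21% and 1.54%, with a median difference of -0.11, -0.12 and -0.20 at 1, 2 and 6 weeks. At an unadjusted p under 0.05, 6 were lower at 2 weeks, and 2 were higher and 6 lower at 6 weeks. After quantile normalization 4 fell at 2 weeks and 6 at 6 weeks. At 1 week the adenylyl cyclase Adcy3 rose by 0.41 ± 0.11 and Rgs2, which shortens G protein signals, fell by 1.64 (adjusted p = 0.0206 and 0.0453, limma). At 2 weeks the subunits Gng5, Gnas and Gng12 rose by 2.89 ± 0.56, 1.96 ± 0.52 and 1.07 ± 0.33 (adjusted p = 0.000356, 0.0099 and 0.0295), Gnas being the subunit that stimulates cyclic AMP. With the log2 of the mean FPKM plus 1 none of these 5 genes was called (adjusted p = 0.301 for Adcy3, 0.0776 for Rgs2, 0.167 for Gng5, 0.141 for Gnas and 0.697 for Gng12). Gng5 was the one of the 5 called without any 1 mouse. Gnas was not called without CKp25 mouse 3 or CK mouse 3 of that week (0.0738 and 0.0644), Gng12 without CKp25 mouse 1 or 3 or CK mouse 1 or 3 (0.107, 0.0835, 0.134 and 0.0871), and Adcy3 without CKp25 mouse 2 or CK mouse 1 or 3 (0.303, 0.119 and 0.0691). Rgs2 was not called without CKp25 mouse 2 or 3 or CK mouse 1 or 2 of 1 week (0.211, 0.199, 0.187 and 0.107), nor without any one of 11 mice of other weeks (0.0507 to 0.0556).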

How the data were processed

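Wells are labelled as single sorted cells of 25 mice, and the mouse, not the cell, was the replicate. The study's description counts 2183 libraries, against 2208 samples here, and whether the 25 wells numbered first for a mouse are single cells is not known. Per the submitters' processing notes, the authors' deposited FPKM were made with Cufflinks 2.2 on build mm9. The annotation, the strand setting and the filters are not given in the sources used here, and no reads or counts were used. Genes entered the test where 3 mice or more each had them in 10% of kept cells (FPKM of 1). limma 3.58.1 (R 4.3.3, trend and robust options, 17 residual degrees of freedom) was fitted once to the levels of all 8 groups, 2-sided, with Benjamini-Hochberg adjustment over 9435 genes and a threshold of 0.05. Python 3.11.15, numpy 2.4.6, pandas 2.3.3, scipy 1.17.1 and matplotlib 3.10.9 did the rest. The fit was tested on simulated data. The receptors, gene lists and markers were chosen with earlier results of these data known. Named genes were the receptors, their 3 most alike genes, the ligand genes (of which one is not reported here), and in each list and week up to 3 genes with the largest positive and 3 with the largest negative difference past the threshold. Doublets were not called. CK mice over time were planned as a test, and the receptor differences are given without one. Of those 25 wells 19 held over 8000 genes, and leaving them all out was an alternative. Nothing states that mice of a group came from separate litters, so p-values measure the spread between these mice. All 6 symbols matched the RefSeq promoter table (Gpr56 as Adgrg1). Columns that map to no sample numbered 0.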

Additional observations from a re-analysis of the deposited data

How the results depend on the processing

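Each of the 18 receptor differences at 1, 2 and 6 weeks was recomputed under 38 alternatives, of which 25 left out 1 mouse each. Of 684 values 646 moved by less than 1 SD between mice. The other 38 came from 5 settings, and none changed sign. With the log2 of the mean FPKM plus 1, Gpr84 was 1.43 at 1 week, Gpr165 -3.10 at 6 weeks, Gpr56 -0.98, -1.87 and -1.32 at 1, 2 and 6 weeks, Gpr183 -0.74 at 6 weeks, Gpr65 1.02, 2.83 and 3.32, and Gpr160 -1.10 at 6 weeks. With a pseudocount of 0.1, Gpr84 was 3.29 at 1 week, Gpr165 -3.76, -5.60 and -2.60 at 1, 2 and 6 weeks, Gpr56 -3.73 at 2 weeks, Gpr183 -2.10 and -1.66 at 2 and 6 weeks, and Gpr65 0.98, 1.84 and 2.26. With a pseudocount of 10 these scales shrank, by construction, to 1.40 for Gpr84 at 1 week, -1.31, -1.86 and -0.77 for Gpr165, -1.10, -1.86 and -1.31 for Gpr56, -0.93 and -0.63 for Gpr183 at 2 and 6 weeks, and 0.29, 0.57 and 0.72 for Gpr65. With FPKM rescaled without Rn45s and small RNA genes, Gpr84 was 2.81 at 1 week and Gpr183 -1.51 at 6 weeks. With a well filter of 2000 genes, Gpr84 was 2.84 and Gpr183 -0.29 at 1 week, Gpr65 0.81 at 1 week and Gpr183 -1.61 at 6 weeks. The cause was not tested for the last pair of settings. Among the other values, 3 small differences changed sign: Gpr84 at 6 weeks lay between -0.50 and 0.29, and Gpr160 at 1 and 2 weeks reached 0.04 and 0.18 without 1 mouse.

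Mouse numbers were not used as pairs in the main fit. Same-numbered CKp25 and CK mice of a week deviated together with a mean r of 0.14 (-0.12 to 0.35, 12 pairs). For differently numbered mice of a week the mean r was -0.06 (-0.34 to 0.22, 27 pairs). Whether the numbers mark pairs was not tested. With a replicate block Gpr84 was 2.35, 1.37 and -0.21 at 1, 2 and 6 weeks, Gpr165 -1.64 and Gpr56 -1.91 at 6 weeks, and Gpr155 was no longer called at 6 weeks. That block gave 430, 652 and 338 genes higher at 1, 2 and 6 weeks, against 368, 579 and 397. Of the 21 calls in the 3 lists, 5 held under all 38 alternatives and 8 held without any 1 mouse. With no filter on genes, so that more genes were tested, Ch25h at 1 week (adjusted p = 0.0989), Ldha at 6 weeks (0.0596), Cd9 (0.111), Gnas (0.0571), Gng12 (0.128), Adcy3 (0.0525), Rgs2 (0.0770) and Gpr155 at 2 and 6 weeks (0.0713 and 0.0608) were not called. The log2 of the mean FPKM gave 96 genes higher and 9 lower at 1 week, against 368 and 37, and 187 higher at 2 weeks, against 579, with the median difference of all genes at -0.17, -0.35 and -0.18 at 1, 2 and 6 weeks. Quantile normalization raised those called lower to 119, 344 and 357, against 37, 211 and 145, at 1, 2 and 6 weeks. A fit to the compared groups alone gave 194 higher and 9 lower at 1 week. All wells gave 21 lower at 1 week, 344 higher at 2 weeks and 208 higher at 6 weeks, against 397, a well filter of 2000 genes 135 and 394 lower at 2 and 6 weeks, and a pseudocount of 0.1 24 lower at 1 week. FPKM keep no counts, so depth sets no interval here.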

Other observations

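The number of the 6 receptors found per cell averaged 2.84 ± 0.19 at 1 week, 2.42 ± 0.29 at 2 weeks and 2.15 ± 0.21 at 6 weeks in CKp25 mice, against 3.01 ± 0.14, 3.06 ± 0.19 and 2.61 ± 0.41 in CK mice (SD over mice). The counts mix receptors with higher and with lower levels and were not tested.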
